A study of Danio rerio with 46 samples.

Results

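The sex steroid receptors of zebrafish were followed here across juvenile trunks and adult gonads of fish that had or had not met heat as juveniles. The 4 genes were taken by name from the table: esr1, esr2a and esr2b, the nuclear estrogen receptors, and ar, the androgen receptor. All 4 had a row among the 31475 rows of the table, and all were measured on each of the 46 arrays, with no filter on dim rows. The heat groups had lived at 36 °C from 18 to 32 days post fertilization (dpf) and the control groups at 28 °C, and every fish was kept at 28 °C afterwards. The juvenile groups were 8 control and 10 heat-exposed trunks of unknown sex at 37 dpf. The adult groups at 90 dpf were testes (10 from control fish, 10 from heated fish) and ovaries (4 from control fish, 4 from heated fish). No strain was given, and the trunk is a body piece in which the gonad is only one of many tissues.

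Estrogen and androgen receptors are transcription factors that sit in a chaperone complex until a steroid binds them, and then act on genes that carry their response elements. Zebrafish have a single alpha-type estrogen receptor, esr1, which in the liver drives production of the yolk protein precursor vitellogenin, and a pair of beta-type receptors, esr2a and esr2b, left from a duplication in the fish lineage. Estrogen, made from androgen by aromatase, favours ovarian development in zebrafish, and androgens acting through ar take part in testis development and spermatogenesis.

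Values are log2 signals, so a difference of 1 is a doubling. The lower quartile of the arrays lay between 6.04 and 6.70, and esr1 was close to it in adult gonads, so differences in esr1 were measured on a dim row. Signals of different genes were not set against each other, and levels were compared only within an age, because the upper quartile of the arrays was 10.64 to 10.72 in gonads and 10.90 to 10.95 in trunks. Marker genes were read against the labelled tissue in control fish: zp3, an egg coat gene, was lower in testis than in ovary by a log2 fold change of −5.27, while amh, the anti-Müllerian hormone gene (4.71), and cyp11c1, an enzyme of fish androgen synthesis (5.92), were higher. Heat-exposed ovaries 2 and 4 went against their label in part. Their spermatogenic marker means were 12.48 and 12.41, where control ovaries lay between 8.30 and 8.75 and control testes between 12.70 and 12.97, and their oocyte marker means were 12.21 and 12.70 against 13.34 to 13.89 in control ovaries. Group comparisons that rest on them are given with and without them.

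**Figure D1:**
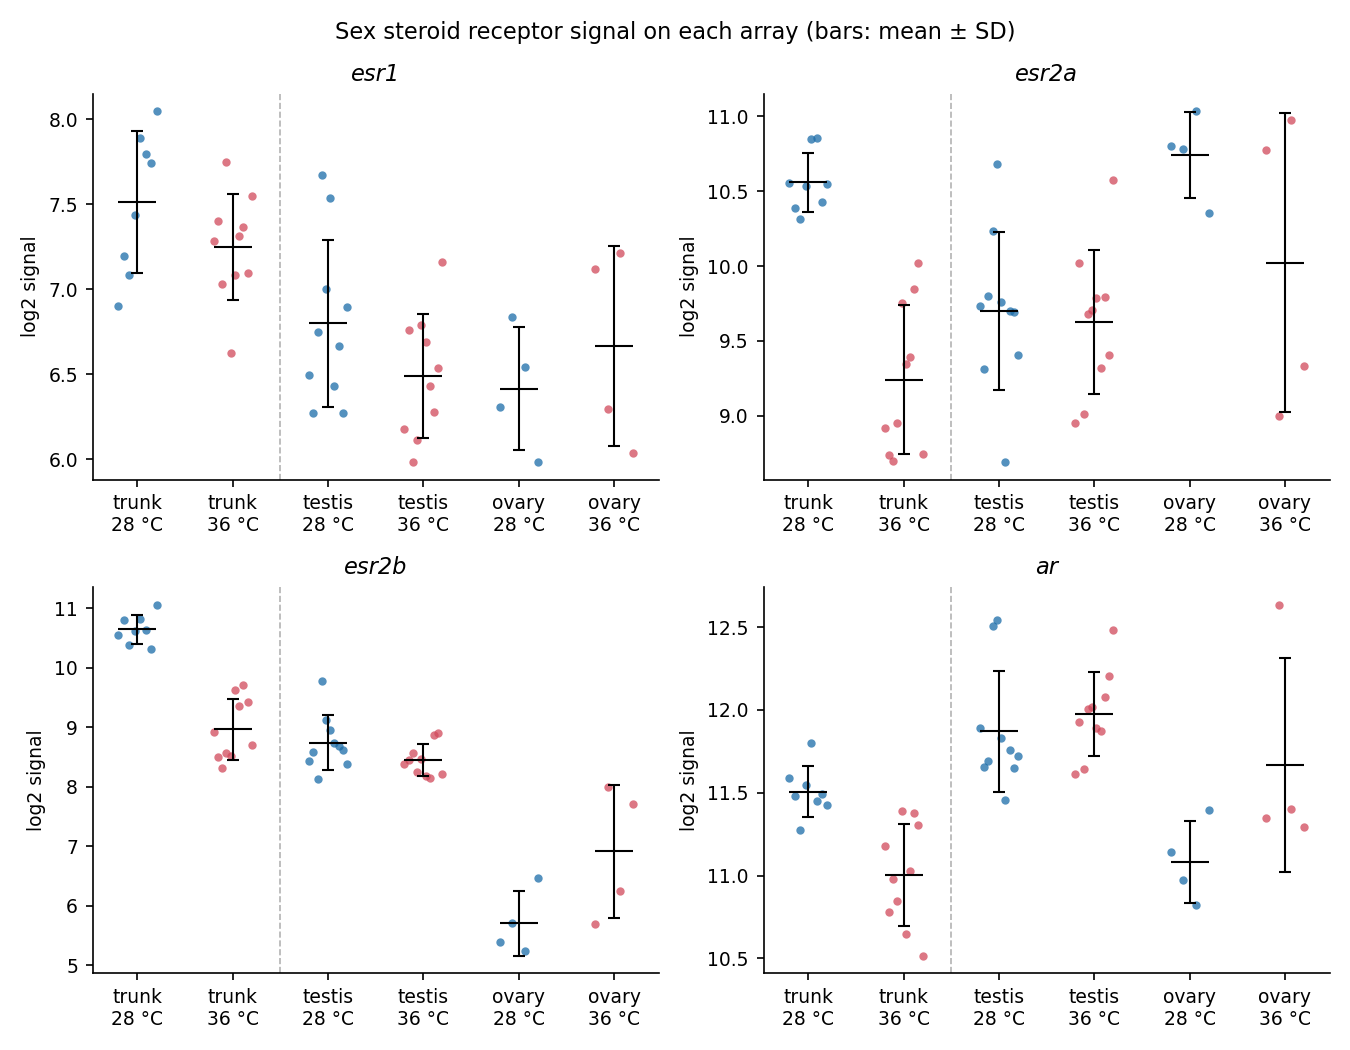
Log2 signal of esr1, esr2a, esr2b and ar (vertical axes, which differ between panels and do not start at 0) on each of the 46 arrays, by tissue and exposure temperature; points are arrays, bars the mean ± SD, and the dashed line parts juvenile trunks from adult gonads. Heat-exposed trunks lie below all control trunks for esr2a and esr2b, and esr2b is low in control ovaries (5.24 to 6.46).

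The first comparison asked whether the receptors differed in trunks 5 days after the exposure had ended. Both beta-type estrogen receptors fell, esr2b by 3.21-fold and esr2a by 2.49-fold, and ar fell by less, 1.42-fold, while esr1 did not pass the test. Thus 3 of the 4 receptor genes were called, all lower, against 14.5% of all rows called in limma at an adjusted p under 0.05 (8.59% higher and 5.96% lower).

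For esr2b the lowest, median and highest of the 8 control trunks were 10.32, 10.62 and 11.06, and those of the 10 heat-exposed trunks were 8.31, 8.81 and 9.70. The ranges did not overlap: every heat-exposed trunk was below every control trunk. The share of all rows whose groups separate in this way was not counted, for this or any later comparison. The mean moved from 10.65 ± 0.24 (SD, n = 8) to 8.96 ± 0.52 (SD, n = 10), a log2 fold change of −1.68 ± 0.20 (SE; limma adjusted p = 4.53e-05).

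The paralogue esr2a showed a like separation. Control trunks had a lowest, median and highest signal of 10.32, 10.54 and 10.86, and heat-exposed trunks of 8.70, 9.15 and 10.02. Here too the groups did not overlap, although heat-exposed trunks 9 and 8 (10.02 and 9.85) came close to the lowest control (10.32). The mean went from 10.56 ± 0.20 to 9.24 ± 0.50, a log2 fold change of −1.32 ± 0.19 (SE; limma adjusted p = 0.000187). For both genes the SD among heat-exposed trunks was larger than that among controls.

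Signals of ar were 11.27, 11.49 and 11.80 (lowest, median and highest) in control trunks and 10.52, 11.004 and 11.39 in heat-exposed trunks. The groups overlapped, with 7 of the 10 heat-exposed trunks below all controls. The log2 fold change was −0.50 ± 0.13 (SE; limma adjusted p = 0.014), from 11.51 ± 0.15 to 11.01 ± 0.31.

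For esr1 the same 3 values were 6.90, 7.59 and 8.05 in control and 6.63, 7.30 and 7.75 in heat-exposed trunks, and only heat-exposed trunk 5 lay below all controls. The log2 fold change of −0.26 had a 95% confidence interval from −0.62 to 0.10 (limma adjusted p = 0.335), so a fall as large as that of esr2a or esr2b lay outside the interval.

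**Figure D2:**
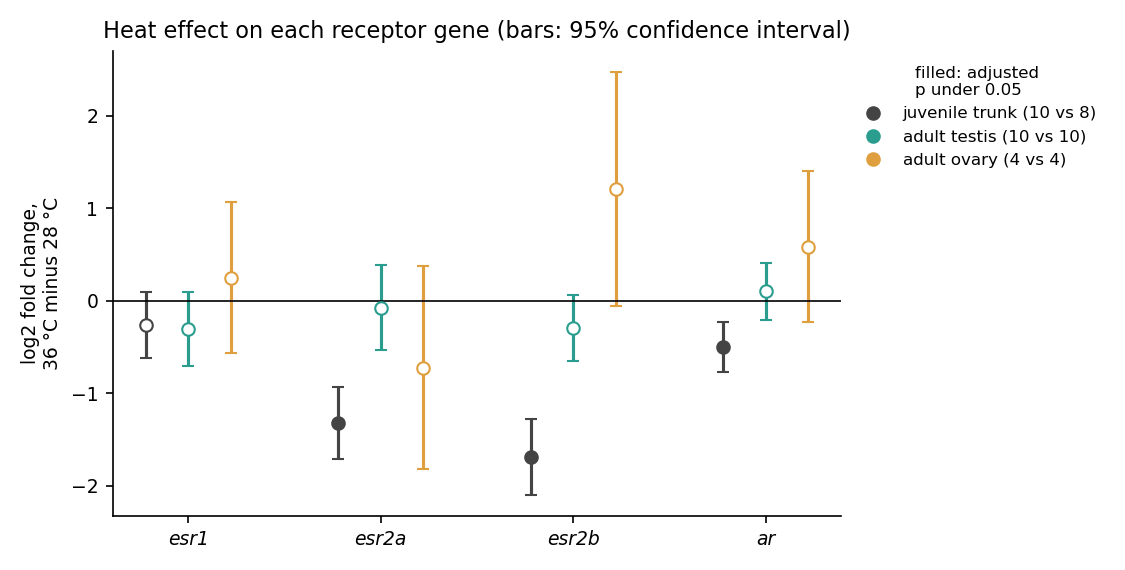
Log2 fold change of each receptor gene, 36 °C minus 28 °C (vertical axis), in juvenile trunks, adult testes and adult ovaries, with 95% confidence intervals from limma; filled points passed an adjusted p under 0.05. The trunk values of esr2b (−1.68), esr2a (−1.32) and ar (−0.50) are filled, and the ovary intervals are the widest.

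Markers of other cell types moved with these falls. Each count of trunk markers stands beside 8.59% of all rows called higher and 5.96% called lower. All 13 oocyte markers and all 10 germ cell markers fell in heat-exposed trunks. Mean oocyte marker signal ran from 8.79 to 13.48 in control and from 6.36 to 9.01 in heat-exposed trunks. In a whole trunk, fewer cells of a type and less RNA per cell cannot be told apart. Oocyte signal also varied among the controls. Control trunks 2 and 4 had oocyte means of 8.81 and 8.79, and their esr2b signals were 10.80 and 10.61 and their esr2a signals 10.39 and 10.53. Heat-exposed trunk 1, with an oocyte mean of 9.01, had 8.92 for esr2b and 8.92 for esr2a. These are 3 arrays picked for their oocyte values, and the relation of the receptors to oocyte signal within a group was not tested.

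Of 15 rows listed as spermatogenic markers 7 rose, 0 fell and 8 did not pass (means of 7.59 to 7.84 in control and 7.77 to 9.56 in heat-exposed trunks). Those that rose included tekt3 (1.93) and spag6 (1.57), and those that did not pass included tssk6 (0.18) and tekt2 (−0.35). All 10 germ cell markers fell in the same trunks. Whether the rises came from spermatogenic cells or from other cells of the trunk was not tested. Of 5 erythrocyte markers 2 fell and 0 rose, with means of 11.49 to 12.48 in control and 9.68 to 11.83 in heat-exposed trunks. The part of these lists in the receptor falls was not tested.

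Neural markers moved in the other direction from the receptors: 10 of 12 rose and 0 fell. Their mean signal ran from 9.90 to 11.10 in control and from 10.84 to 12.71 in heat-exposed trunks, so the groups overlapped in part. Inside that overlap, control trunks 1 and 3 (neural means of 10.85 and 11.10) had esr2b signals of 10.55 and 10.38. Heat-exposed trunks 6, 7 and 8 (10.89, 11.02 and 10.84) had 9.62, 9.36 and 9.70. These arrays were picked for their neural values, and esr2b at matched neural signal was not tested. Within heat-exposed trunks esr2b was lower where neural signal was higher (Pearson's r = −0.74, n = 10, permutation p = 0.019, adjusted p = 0.095 over 40 relations; Spearman's rho = −0.67, permutation p = 0.041, adjusted p = 0.15), which fails the correction. Without the trunks farthest from the median, 1 and 10, r was −0.94. Control trunks gave r = −0.77 (n = 8, exact permutation p = 0.029, adjusted p = 0.1). There Spearman's rho was −0.81 (exact permutation p = 0.022, adjusted p = 0.14), and r was −0.48 without trunks 5 and 8. For the other receptor genes, r with neural signal in control trunks was −0.84 for esr1, −0.70 for esr2a and −0.51 for ar. In heat-exposed trunks it was −0.04, −0.60 and −0.11, and none of these passed the correction.

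**Figure D3:**
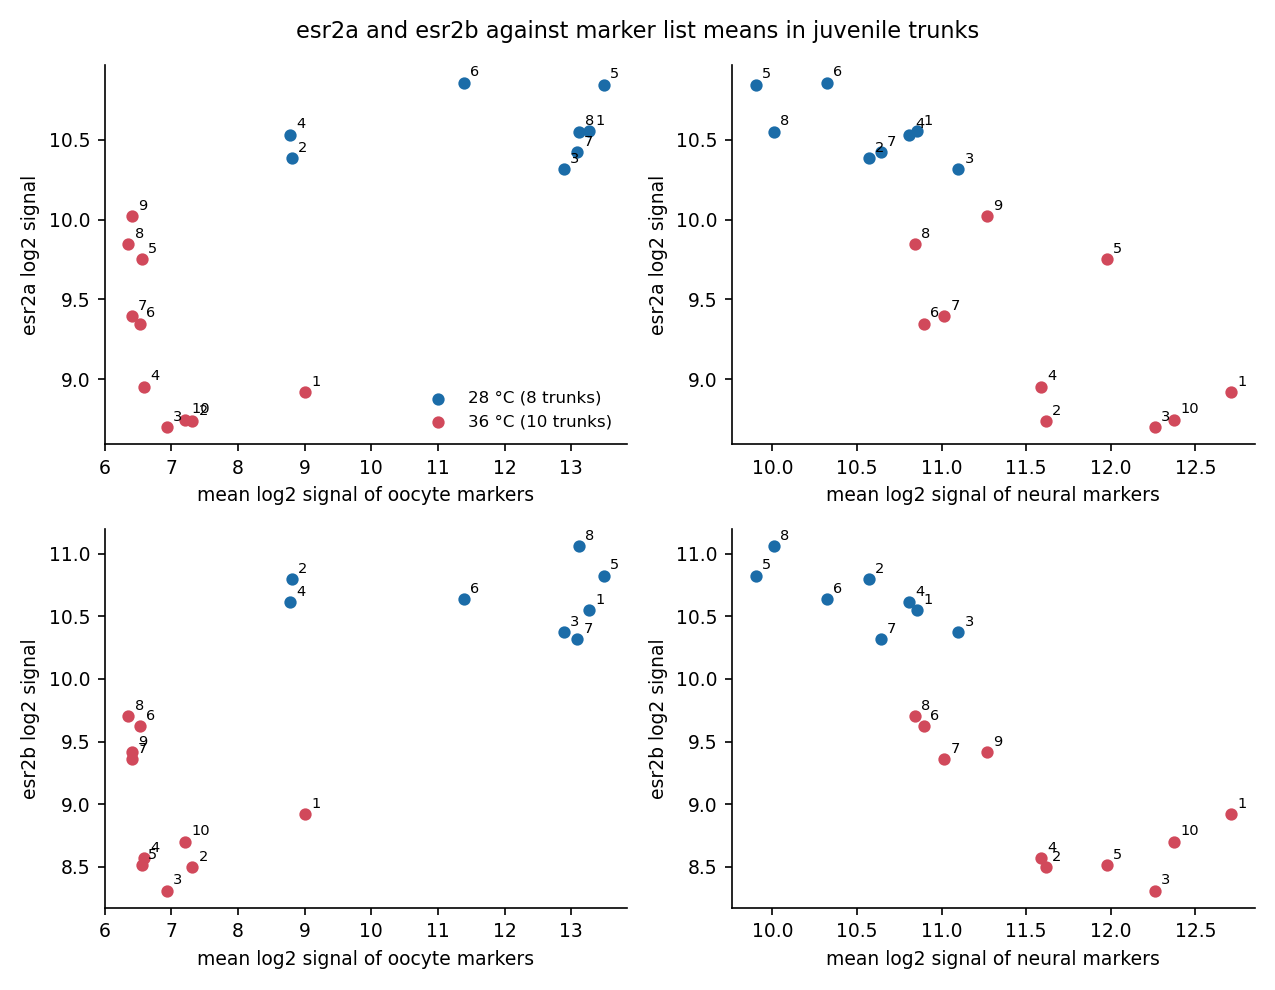
Log2 signal of esr2a (top) and esr2b (bottom) against the mean log2 signal of 13 oocyte markers (left) and 12 neural markers (right) in 8 trunks at 28 °C and 10 at 36 °C; numbers are replicate numbers. Control trunks 2 and 4 had oocyte means of 8.81 and 8.79. They were picked for these values, and the relation of the receptors to oocyte signal was not tested.

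With the neural mean as a covariate the log2 fold change of esr2b was −1.06 (adjusted p = 0.0128), that of esr2a −0.83 (0.069) and that of ar −0.41 (0.277). With the oocyte mean as a covariate the values were −1.91 (0.0455) for esr2b, −1.53 (0.0729) for esr2a and −0.49 (0.366) for ar. Both covariates differ between the temperatures, so a fit with them can remove change that they share with the receptors and can also widen the SE. Oocyte means of 8.79 to 13.48 in control and 6.36 to 9.01 in heat-exposed trunks barely overlap. The fit with that covariate thus cannot tell its share from that of temperature, and no conclusion is drawn from the size of its values. With the oocyte mean the SE rose from 0.19 to 0.39 for esr2a, from 0.20 to 0.41 for esr2b and from 0.13 to 0.27 for ar. The call of ar also ended with the skeletal muscle mean as a covariate (−0.54, adjusted p = 0.0621), while esr2a (−1.40, adjusted p = 0.00351) and esr2b (−1.61, adjusted p = 0.00206) stayed called. In these trunks 2 of 11 muscle markers rose, beside 14.5% of all rows called, so that count says nothing particular about muscle.

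The other genes of the pathway were taken from lists of ligand synthesis, related receptors, partners and targets. Of 20 genes of steroid synthesis and gonadotropin reception, 3 fell, 0 rose and 17 did not pass, with a median log2 fold change of −0.19 beside 0.04 over all rows. That share is close to the 14.5% of all rows called in trunks, so the count says nothing particular about the list. They were cyp11a1, the side-chain cleavage enzyme that opens steroid synthesis (−3.16, adjusted p = 0.00163), hsd11b2, an enzyme of 11-oxygenated androgens (−0.90, adjusted p = 0.00915), and hsd3b1, which converts pregnenolone to progesterone (−1.71, adjusted p = 0.0199). All 3 are read in the trunks where oocyte markers fell, and 2 of them, cyp11a1 and hsd3b1, were also higher in adult ovary than in testis. Whether these falls go with the oocyte change was not tested. The gonadal aromatase cyp19a1a (−0.59, adjusted p = 0.217) and the brain aromatase cyp19a1b (0.54, adjusted p = 0.123) did not pass.

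Of 9 relatives of these receptors 1 passed, again beside 14.5% of all rows. It was esrrga, an orphan receptor of the estrogen-related family, which rose by 1.59 (adjusted p = 0.0118) in the trunks where neural markers rose. Whether that rise goes with the neural change was not tested. The membrane estrogen receptor gper (gper1; 0.06, adjusted p = 0.867), the progesterone receptor pgr (−0.02, adjusted p = 0.95) and the glucocorticoid receptor nr3c1 (0.26, adjusted p = 0.15) did not pass. These 3 were picked out after their values were seen, as the nearest steroid receptors.

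Of 12 estrogen-responsive genes only the vitellogenin gene vtg5 was called, and it fell by 1.33 (adjusted p = 0.00132), where 14.5% of all rows were called. In control adults vtg5 was higher in ovary than in testis (log2 difference −2.51, testis minus ovary). Whether its fall in trunks goes with the oocyte change was not tested. The list had a median of 0.04, and vtg1 stood at 0.26 (adjusted p = 0.449). Its mean signal was 6.68 in control and 6.66 in heat-exposed trunks, close to the lower quartile of the trunk arrays (6.53 to 6.70). The list was thus dim on average, and its median says little about whether estrogen targets fell. Among 5 androgen-responsive genes 3 fell, slco1f4, an organic anion transporter (−1.93, adjusted p = 0.0383), cyp2k22, a cytochrome P450 (−1.21, adjusted p = 0.0473), and fkbp5, a receptor co-chaperone that glucocorticoids also induce (−0.56, adjusted p = 0.00943). The other 2, lipca (0.46, adjusted p = 0.0703) and sult2st3 (0.56, adjusted p = 0.119), pointed up and did not pass. They are named to complete the list. The median of the 5 was −0.56, and fkbp5 is also counted among the chaperones below. Of the 13 liver markers 0 were called (median −0.03), in limma at an adjusted p under 0.05.

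Among 16 chaperones of steroid receptors, fkbp5 and st13 (−0.37, adjusted p = 0.0408) fell and 0 rose. Of 24 coregulators 4 rose and 1 fell. Over all rows 14.5% were called, so neither count stands far from that share. The acetyltransferase genes ep300a (0.68, adjusted p = 0.0136) and ep300b (0.41, adjusted p = 0.0215) and the coactivator ncoa6 (0.44, adjusted p = 0.0304) rose. So did med1, a Mediator subunit that binds nuclear receptors (0.49, adjusted p = 0.0388), which lay outside the rule for named genes and was added after its value was seen. The repressor nr0b1 (DAX1) fell by 1.27 (adjusted p = 0.017).

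The next comparison placed the receptors between the adult gonads of control fish. esr2b was higher in testis by 3.04 on the log2 scale, ar was 1.73-fold higher in testis and esr2a 2.06-fold higher in ovary, and esr1 did not pass. On 3 of the 4 control ovaries esr2b lay below the lower quartile of its own array, so it was read there on a dim row and the size of its difference is not given as a fold. The paralogues esr2a and esr2b thus lay on opposite sides. The 3 calls among 4 genes stand beside 60.3% of all rows called in limma.

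Control ovaries 1 to 4 had esr2b signals of 5.40, 5.71, 5.24 and 6.46, and control testes had a lowest, median and highest of 8.12, 8.64 and 9.78. The lowest testis was above the highest ovary. The log2 difference, testis minus ovary, was 3.04 ± 0.28 (SE; limma adjusted p = 1.12e-07).

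For esr2a the control ovaries read 10.80, 10.78, 11.04 and 10.35, against 8.69, 9.72 and 10.68 in testes. All testes but replicate 5 (10.68) lay below every ovary, and the difference was −1.04 ± 0.28 (SE; limma adjusted p = 0.00394).

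Ovary signals of ar were 11.14, 10.97, 10.82 and 11.40, and testes ran from 11.46 over a median of 11.74 to 12.54. The groups did not overlap, by a narrow margin between testis 7 (11.46) and ovary 4 (11.40). The difference was 0.79 ± 0.21 (SE; limma adjusted p = 0.00412).

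The dim esr1 read 6.30, 6.83, 6.54 and 5.98 in ovaries and 6.27, 6.71 and 7.67 in testes, with a difference of 0.38 and an interval from −0.18 to 0.95 (limma adjusted p = 0.23). Many markers of muscle, liver and blood were higher in testis than in ovary. Of all rows 60.3% were called, with 29.6% higher in testis. Whether the marker signal came from neighbouring tissue was not tested. Of 11 skeletal muscle markers 9 were higher in testis, with means of 8.86 to 12.17 in control testes and 7.73 to 8.33 in control ovaries, and 8 of 13 liver markers were higher. Erythrocyte marker means were 10.43 to 12.39 in control testes and 8.28 to 8.90 in control ovaries. The part of these tissues in the receptor differences was not tested.

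Of the 20 genes of steroid synthesis and gonadotropin reception, 10 were higher in testis and 5 in ovary, where 60.3% of all rows were called. The first by adjusted p were cyp11c1 (5.92, 2.19e-13) and star, the cholesterol carrier of steroid-making mitochondria (4.40, 1.05e-11), in testis, and cyp19a1a (−4.18, 2.41e-10) and hsd3b1 (−6.04, 6.62e-10) in ovary. Of the 12 estrogen-responsive genes 7 were higher in ovary and 0 in testis, led by vtg2 (−4.30, adjusted p = 4.75e-08), vtg5 (−2.51, 1.72e-07), vtg7 (−1.96, 2.01e-06) and vtg3 (−1.67, 9.49e-06). The list had a median of −1.53, beside 0.01 over all rows. The share of the list called is close to the 60.3% of all rows (29.6% higher in testis, 30.8% in ovary). The number of calls thus says nothing particular about the list.

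**Figure D4:**
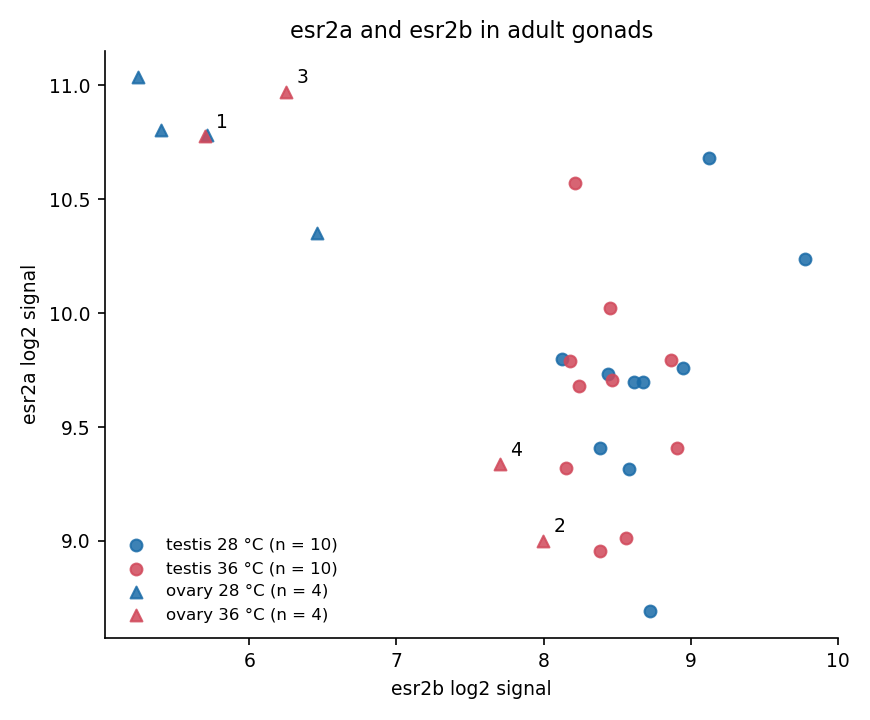
Log2 signal of esr2a (vertical axis) against esr2b (horizontal axis) in 28 adult gonads; circles are testes, triangles ovaries, blue 28 °C and red 36 °C, and numbers mark heat-exposed ovaries 1 to 4. Heat-exposed ovaries 1 and 3 lie with control ovaries, and 2 and 4 lie near the testes, with esr2b at 7.997 and 7.70.

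Heat in juvenile life was then compared in adult testes. None of the 4 receptor genes passed, against 0.0635% of all rows called in limma (20 of 31475, with 3672 at an unadjusted p under 0.05), and 0 of the 4 had an unadjusted p under 0.05. For esr2a the lowest, median and highest signals were 8.69, 9.72 and 10.68 in control and 8.95, 9.69 and 10.57 in heat-exposed testes, which are overlapping ranges. The log2 fold change was −0.08, with an interval from −0.53 to 0.38 (adjusted p = 0.931). For esr2b the values were 8.12, 8.64 and 9.78 against 8.15, 8.42 and 8.91, and the change was −0.30 (interval −0.65 to 0.06, adjusted p = 0.528). Signals of ar lay at 11.46, 11.74 and 12.54 and at 11.61, 11.97 and 12.48, a change of 0.10 (interval −0.20 to 0.41, adjusted p = 0.833). For esr1 they lay at 6.27, 6.71 and 7.67 and at 5.98, 6.48 and 7.16, a change of −0.31 (interval −0.71 to 0.09, adjusted p = 0.565).

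Whether the trunk and testis responses differed was tested directly in 1 fit of their 38 arrays, as the heat effect in trunks minus that in testes. The difference passed for esr2b (−1.39 ± 0.26 SE, adjusted p = 0.000594) and esr2a (−1.24 ± 0.30 SE, adjusted p = 0.00687), beside 6.99% of all rows. It did not pass for ar (−0.61 ± 0.20 SE, adjusted p = 0.053) or esr1 (0.04 ± 0.26 SE, adjusted p = 0.949). The ar value passed with array weights (adjusted p = 0.0316), with a trended prior (0.0442) and without dim rows (0.043). Age, tissue and time since the exposure change together in this contrast, and the trunks were of unknown sex while the testes were from males. These cannot be told apart.

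In adult ovaries the heat-exposed arrays were unlike each other. Heat-exposed ovaries 1 to 4 had esr2b signals of 5.70, 7.997, 6.25 and 7.70. Ovaries 1 and 3 were within the control ovary range of 5.24 to 6.46, and 2 and 4 lay above it and just under the lowest control testis, 8.12. For esr2a the same arrays read 10.78, 9.001, 10.97 and 9.34, so that 1 and 3 were again within the control ovary range (10.35 to 11.04) and 2 and 4 within the control testis range (8.69 to 10.68). Ovaries 2 and 4, with low esr2a and high esr2b, also stood apart in other lists than the spermatogenic one. Their testis somatic marker means were 10.14 and 10.41 (7.47 to 7.72 in control ovaries), and their erythrocyte marker means 12.83 and 12.49 (8.28 to 8.90 in control ovaries). The part of these cells in the receptor values was not tested.

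The androgen receptor did not follow that grouping. It read 11.35, 12.64, 11.40 and 11.29, so that ovary 2 exceeded every control testis (11.46 to 12.54) while ovary 4 stayed within the control ovary range of 10.82 to 11.40. The other 3 heat-exposed ovaries lay between 11.29 and 11.40. Ovary 2 also had a kidney marker mean of 7.82, where those 3 had 5.57 to 6.19. The part of other tissue in its ar value was not tested. Signals of esr1 were 7.12, 6.30, 7.21 and 6.04, with ovaries 1 and 3 above all control ovaries (5.98 to 6.83) and 2 and 4 within their range.

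As groups of 4, heat-exposed and control ovaries did not differ past the threshold in any receptor gene. In limma 0% of all rows was called, with 3334 rows at an unadjusted p under 0.05 and 0 of the 4 receptor genes among them. The log2 fold changes were 1.21 for esr2b (interval −0.05 to 2.48, adjusted p = 0.434), −0.72 for esr2a (−1.82 to 0.37, adjusted p = 0.465), 0.59 for ar (−0.23 to 1.40, adjusted p = 0.447) and 0.25 for esr1 (−0.56 to 1.07, adjusted p = 0.721). These means pool arrays 1 and 3 with 2 and 4. Without ovaries 2 and 4 the values were 0.27 for esr2b, 0.13 for esr2a, 0.29 for ar and 0.75 for esr1. With all 46 arrays in 1 model, which takes the spread from all groups, esr2b passed (limma adjusted p = 0.0166), as 1 of 4869 rows called among 31475. The SD of esr2b was 1.11 in heat-exposed ovaries and 0.24 to 0.54 in the other groups, so the shared spread is narrower than that of these ovaries.

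The heat effect in testes minus that in ovaries was −1.51 ± 0.45 (SE, adjusted p = 0.0752) for esr2b, and 0 of the 4 receptor genes passed, beside 1.21% of all rows. In limma 6696 rows had an unadjusted p under 0.05 here, and esr2b was the 1 receptor gene among them. The esr2b value rests on ovaries 2 and 4: without them it was −0.57 (adjusted p = 0.839), while it passed without heat-exposed ovary 1 (−1.91, adjusted p = 0.00453) or 3 (−1.73, adjusted p = 0.0165). Without ovaries 2 and 4 the values for esr2a, ar and esr1 were −0.21, −0.19 and −1.06, and none passed.

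Among heat-exposed fish only esr2b still separated the gonads, at 1.53 ± 0.35 (SE; limma adjusted p = 0.00576), beside 31% of all rows called. Heat-exposed testes ran from 8.15 to 8.91 in esr2b, above all 4 heat-exposed ovaries. Differences of −0.40 for esr2a (adjusted p = 0.443), 0.30 for ar (0.374) and −0.17 for esr1 (0.653) did not pass. Without ovaries 2 and 4 the esr2b difference was 2.47 (adjusted p = 3.33e-06), and esr2a (−1.25, adjusted p = 0.0098) and ar (0.60, adjusted p = 0.0435) passed in the same direction as in control fish, and ar passed without ovary 2 alone (0.63, adjusted p = 0.0261).

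In order of mean level, adult groups ran for esr2b from control testis (8.74 ± 0.46, SD) over heat-exposed testis (8.44 ± 0.27) and heat-exposed ovary (6.91 ± 1.11) to control ovary (5.70 ± 0.54). Of these neighbours only heat-exposed testis and heat-exposed ovary differed past the threshold. For esr2a the order was control ovary (10.74 ± 0.29), heat-exposed ovary (10.02 ± 0.998), control testis (9.70 ± 0.53) and heat-exposed testis (9.63 ± 0.48). The testes did not differ from each other, nor did the ovaries, and heat-exposed ovary and control testis were not tested. For ar it was heat-exposed testis (11.97 ± 0.26), control testis (11.87 ± 0.36), heat-exposed ovary (11.67 ± 0.65) and control ovary (11.08 ± 0.25), where again no tested neighbours differed. Group means of esr1 spanned only 6.42 to 6.80, and no tested pair differed.

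In control testes esr2a and ar varied together (Pearson's r = 0.88, n = 10, permutation p = 0.00084, adjusted p = 0.034; Spearman's rho = 0.82, permutation p = 0.0063, adjusted p = 0.097). Without testes 7 and 5, the farthest from the median of esr2a, r was 0.82. Testes 4 and 5 were high in both genes (10.24 and 10.68 in esr2a, 12.51 and 12.54 in ar), and testis 7 was lowest in both (8.69 and 11.46). Without testes 4 and 5, left out after their values were seen, r was 0.81 and rho 0.64 over the other 8. Heat-exposed testes gave r = 0.81 (n = 10, permutation p = 0.0069, adjusted p = 0.055) and rho = 0.68 (permutation p = 0.033, adjusted p = 0.15). Without testes 10 and 1, the farthest from the median of esr2a, r was 0.45. Leaving out the farthest arrays narrows the range of esr2a, so the lower r does not show what the relation rests on. Of 40 such relations within single groups (pairs of receptor genes, and each gene with a marker mean), the one between esr2a and ar in control testes was the 1 that passed, and 14 had an unadjusted permutation p under 0.05.

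**Figure D5:**
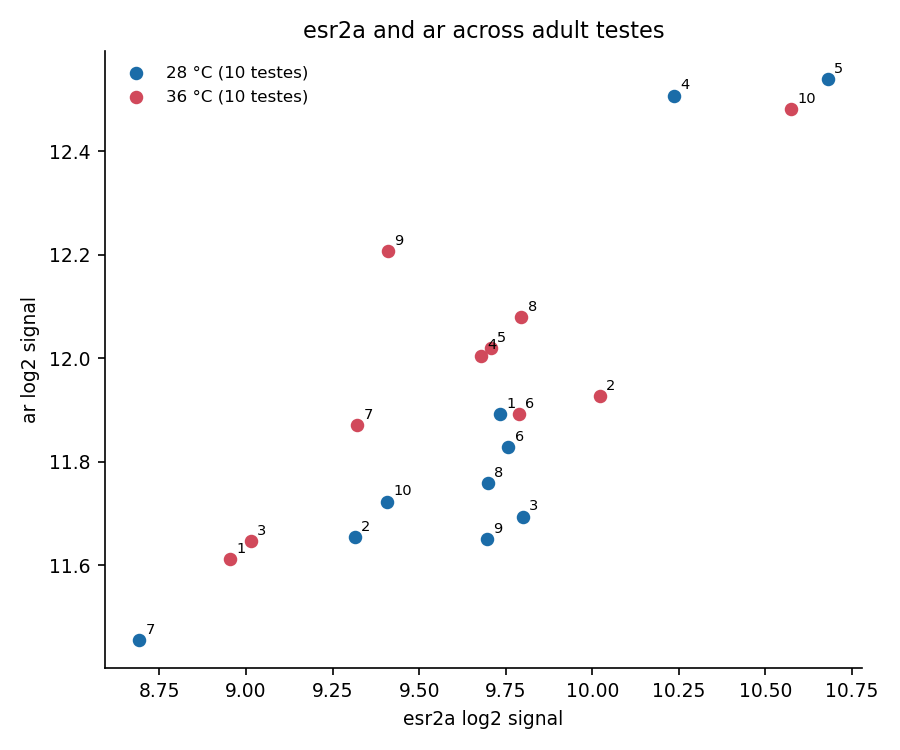
Log2 signal of ar (vertical axis) against esr2a (horizontal axis) in 10 control and 10 heat-exposed testes; numbers are replicate numbers. Control testes 4 and 5 and heat-exposed testis 10 are at the upper right (ar of 12.51, 12.54 and 12.48), and control testis 7 is at the lower left (11.46).

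In heat-exposed testes ar was lower where the spermatogenic marker mean was higher (r = −0.84, n = 10, permutation p = 0.0037, adjusted p = 0.055; rho = −0.81, permutation p = 0.0072, adjusted p = 0.097), which fails the correction, and r was −0.61 without testes 3 and 10. Testis 10 had the lowest spermatogenic mean, 12.61, and the highest ar, 12.48. Its array also had the highest lower quartile (6.44) and the lowest upper quartile (10.64) of the gonad arrays.

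The rows with gene symbols whose pattern was most like each receptor were sought among 14194 rows by Pearson's r. Over the 18 trunks these were cnot7, a subunit of the deadenylase complex (0.96), mpz, a myelin protein (0.92), and aqp10a, a water and glycerol channel (0.92), for esr2a. For esr2b they were aqp10a (0.94), nfil3-6 (0.93) and baiap2l1a (0.93), and for ar mpz (0.92), zbtb7a (0.86) and slc16a1 (slc16a1b; 0.86). Part of this likeness is the shared fall with heat. For deviations from the group means, r was 0.87 for cnot7 with esr2a, 0.82 for aqp10a with esr2b and 0.84 for mpz with ar. The row most like esr1 was irx5b, a homeobox gene (0.87, and 0.85 for deviations).

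Over the 28 gonads the nearest rows were tspan9b (0.96), sept8b (septin8b; 0.95) and the collagen gene col5a2a (0.95) for esr2b. For deviations from the group means r was 0.85, 0.74 and 0.76, so part of the likeness is the difference between testis and ovary. The nearest were calm2a (0.90), cldn12 (0.89) and ctcf (0.89) for esr2a, and slc9a3.1 (0.90), abca2 (0.88) and rbm5 (0.87) for ar, with r of 0.86, 0.84 and 0.83 for deviations in the esr2a rows and 0.83, 0.81 and 0.78 in the ar rows. For esr1 the highest values were lower, at 0.67 for rfk, 0.64 for rorab and 0.64 for fzd3a (0.73, 0.63 and 0.62 for deviations). In trunks and gonads alike these rows are the highest of 14194, and no chance level was worked out for such a highest value. The r of deviations uses the arrays on which the rows were picked, so it is not separate support.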

How the data were processed

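Total RNA of trunks, testes and ovaries was amplified with a whole-transcriptome kit, labelled with Cy3 and hybridised to 1-colour NimbleGen arrays, per the labels' protocols. The deposited values are log2 signals, made by the authors with RMA according to the submitters' processing notes. The sources used here give no RMA version or array annotation and do not say which sets of arrays were normalized jointly, and log2 was read from the range of the values (3.76 to 15.89). Quantile normalization can hide changes shared by most genes, and amplification can stretch or compress differences. No batch labels were given. The design text counts 10 juvenile controls, and 8 are used here.

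All 31475 rows entered lmFit and eBayes of limma 3.58.1, in R 4.3.3, with the groups of each comparison. Tests were two-sided, with Benjamini-Hochberg adjustment across the whole table and a call at an adjusted p under 0.05. The code was tested on simulated data. Alternatives were array weights, a trended and robust prior, leaving out rows under the 25th percentile of mean signal, median centring, 1 model of all arrays, leaving out each array, covariates, and a replicate block. Relations between genes were tested within a group by permutation (100000 resamples, or exact under 10 arrays) and adjusted over 40. Lists held 218 entries, of which 200 were found, 18 by another symbol in RefSeq's gene table of GRCz12tu. Named genes were the 4 receptors, up to 4 called genes of each list by adjusted p, single tissue markers and the 3 rows most like each receptor. The genes and lists were chosen with earlier results of these data known. Receptor sequences and probe positions were not used here, so sharing of signal between esr2a and esr2b was not tested.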

Additional observations from a re-analysis of the deposited data

Results flagged for a closer look

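In heat-exposed ovaries ar had 1 array far from the others: ovary 2 read 12.64, and its gap to the next array was 0.919 of the range of the 4. This was 1 of 24 groups of values examined, and chance alone sets about 1 in 20 such groups apart. Without ovary 2 the heat effect on ar in ovaries was 0.27 on the log2 scale, against 0.59 with it. The kidney marker mean of ovary 2, 7.82, also lay above that of the other heat-exposed ovaries (5.57 to 6.19).

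The heat effect in trunks differed from that in adult testes by −1.39 in esr2b and by −1.24 in esr2a on the log2 scale, each past the threshold of an interaction contrast. In trunks all 10 heat-exposed arrays were below all controls in both genes, and in testes the ranges overlapped. The share of all rows with such a separation was not counted.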

How the results depend on the processing

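Across single left-out arrays, 540 of 560 receptor values kept their direction and side of the threshold, as did 168 of 184 values under the other alternatives. Most of these belong to results that were not called to begin with, so the tally says little about the calls. Without any 1 array, 3 receptor genes stayed called in trunks and 3 between control gonads. In trunks, esr2b was called under every alternative run. The calls of esr2a and ar ended with the oocyte and neural means as covariates, and with the germ cell mean, an alternative chosen after the data were seen (−1.27, adjusted p = 0.0897, and −0.47, adjusted p = 0.349), which left 1 receptor gene called, as did the oocyte (−1.53; −0.49) and neural (−0.83; −0.41) means. The skeletal muscle mean ended only the call of ar (−0.54) and left 2 genes called. Without heat-exposed ovaries 2 and 4, esr2a turned to 0.13 in the ovary comparison and to −0.21 in testes minus ovaries, and reached −1.25, with ar at 0.60, between heat-exposed gonads, where 3 genes passed. With all arrays in 1 model esr2b passed at 1.21 in ovaries and −1.51 in testes minus ovaries (1 gene called in each). Over all rows 4869 and 2508 were called there. In trunks minus testes ar passed at −0.58 with array weights and at −0.61 with a trended prior or without dim rows. Why the calls moved was not tested.

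Left-out arrays gave these ranges where a call or direction moved: ar 0.18 to 0.63 and esr1 −0.38 to 0.0065 between heat-exposed gonads, esr2b −1.91 to −1.15 in testes minus ovaries, esr2a −0.19 to 0.034 in testes (above 0 without control testis 5), and ar −0.68 to −0.55 (called without any 1 of 8 arrays) and esr1 −0.052 to 0.12 in trunks minus testes. Counts of receptor genes called then ran from 1 to 2 between heat-exposed gonads, 0 to 1 in testes minus ovaries and 2 to 3 in trunks minus testes.

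Calls over all rows in trunks went from 4579 to 169, 550, 1715 and 113 with the oocyte, neural, muscle and germ cell means, and to 2863 without heat-exposed trunks 1, 2 and 10. In testes 20 became 54 with array weights, 7 after centring, 102 in 1 model, 3 with the replicate block and 1 to 57 without single arrays. In ovaries 0 became 4 with array weights, 4869 in 1 model, 8 without ovaries 2 and 4, and 0 to 5 without single arrays. Between heat-exposed gonads 9757 became 15100 without ovaries 2 and 4, and 4386 to 12241 without single arrays. In testes minus ovaries 380 became 20 with array weights, 2508 in 1 model, 36 without ovaries 2 and 4 and 48 to 4817 without single arrays, and in trunks minus testes 2201 became 1414 in 1 model.

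Deviations of same-numbered arrays had an r from −0.08 to 0.13 in trunks, −0.04 to 0.15 in testes and 0.02 to 0.15 in ovaries. Arrays of unlike numbers were not set beside these, so whether same-numbered arrays share more than a number was not tested. With the replicate block the trunk values were −1.71 for esr2b, −1.35 for esr2a and −0.48 for ar, all still called.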

Other observations

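Partners of the receptors were also compared between the gonads of control fish, where 60.3% of all rows were called, so the counts below say nothing particular about these lists. Of 24 coregulators 12 were higher in ovary and 3 in testis, with a median log2 difference, testis minus ovary, of −0.42 beside 0.01 over all rows. The arginine methyltransferase gene carm1 (−4.09, limma adjusted p = 2.84e-08), the corepressor genes nrip1a (−2.63, 4.22e-08) and nrip1b (−2.75, 2.03e-07) and the acetyltransferase gene crebbpa (−2.59, 1.12e-07) led the ovary side. Of 16 chaperones 5 were higher in testis and 4 in ovary. The heat shock protein gene hsp90aa1.2 (2.90, limma adjusted p = 1.3e-09) and ahsa1 (ahsa1a; 2.19, 0.00294) were higher in testis, and ahsa1l (ahsa1b; −1.87, 0.000804) and the co-chaperone gene stip1 (−0.83, 0.000822) in ovary. Of 9 receptor relatives 3 were higher in ovary, the estrogen-related receptor genes esrrd (−3.76, 4.31e-07) and esrra (−1.67, 7.77e-06) and the membrane estrogen receptor gper (−0.69, 0.0327).

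In heat-exposed against control testes 0 genes of these lists passed. The 5 androgen-responsive genes had a median log2 fold change of 0.87 there, beside 0.02 over all rows. Their list means were 6.41 to 7.72 in control and 6.38 to 9.10 in heat-exposed testes. The marker lists with medians farthest from 0 there were the 5 erythrocyte markers (0.71) and 11 skeletal muscle markers (−0.74), with 0 called in each. Medians of the other marker lists lay between −0.40 (germ cell) and 0.28 (intestine), with liver markers at −0.09. The part of other tissues in the androgen-responsive values was not tested.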
